A study of Mus musculus with 16 samples.

Results

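Deubiquitinating enzymes, the proteases that take ubiquitin off proteins, were examined in EMP3 mutant mice with two-colour microarrays. Members were chosen by gene symbol: every probe annotated as a Usp, Otub, Otud, Uchl or Josd gene, or as Bap1, Cyld, Tnfaip3, Stambp or Atxn3, was taken. This gave 72 probes for 42 genes, of 20794 probes on the array and 12771 with a single gene symbol. The group was prompted by measured values, namely the difference of Usp25 between tissues and the thymus value of Otub1, so those values are given below as a description without a test. RNA came from spleen and thymus of 4 male EMP3 mutant mice aged 17 weeks, per the sample labels, which were followed here. The series' title and design text name thymus and brain instead, so the tissue called spleen below rests on the sample labels alone. Each mouse was hybridised on 2 arrays with the dyes exchanged, against an EMP3 wild type pool of the same tissue, sex and age. The labels list 4 mice in the pool, the labelling protocol speaks of 6, and the kind of EMP3 mutation is not given in the sources used here.

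Ubiquitin is attached to proteins by a cascade of E1, E2 and E3 enzymes and marks them for the proteasome, for the lysosome or for signalling. Deubiquitinases reverse this step. The USP, OTU, UCH and Josephin families are cysteine proteases, while JAMM enzymes are metalloproteases. In lymphoid tissue, the members Tnfaip3 (A20) and Cyld are known as brakes on NF-kB signalling.

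Values are log2 ratios, read as mutant over pool, so a value above 0 stands for more RNA in the mutant. The labels state neither the base of the logarithm nor the numerator, and the design text makes mutant over pool the likely direction. If the pool is the numerator, every sign below turns. The ratios of the arrays with mutant RNA in Cy3 were taken as already turned to this direction. A mouse's 2 spleen arrays correlated at 0.0518 to 0.424 over all probes, but its 2 thymus arrays correlated at -0.44 to -0.249, so the direction in thymus is not settled, and thymus means of named members are also given with the Cy3 arrays turned. In mouse 2 the 2 thymus arrays nearly mirrored each other (r = -0.922) and were dropped, which leaves 4 mice in spleen and 3 in thymus. The ratios carry no level per tissue, so the tissue labels could not be checked against defining markers. Bulk ratios also do not tell fewer cells of a type apart from less RNA per cell. Emp3 itself, at 2 probes, had spleen ratios of 0.20 ± 0.25 and 0.27 ± 0.38 (SD, n = 4 each) and thymus ratios of -0.04 ± 0.10 and 0.05 ± 0.05 (SD, n = 3 each) (means of 0.03 and -0.04 with the Cy3 arrays turned), and neither probe passed an adjusted p of 0.05 in limma.

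In spleen, 16 of 71 tested member probes differed from the pool (limma, Benjamini-Hochberg adjusted p under 0.05 over all probes), 7 higher and 9 lower. This is 22.5% of the members, beside 25.3% of all 20127 tested probes (13.4% higher and 11.9% lower), so the enzymes as a group changed about as often as the array as a whole. Without Usp25 and Otub1, which prompted the group, it was 14 of 68 (20.6%). The median log2 ratio was 0.02 for the members and 0.04 for all probes, and the median size was 0.18 and 0.17. The lower enzymes included Usp2, Josd2, Usp46 and Usp3, and the higher ones Josd1, Tnfaip3, Usp16 and Usp7. All 16 had the same sign in 4 of 4 mice, a pattern found at 34 of 71 members and at 48.2% of all probes. The count fell to 9 without mouse 4, where 12.2% of all probes passed, and to 10 without mouse 2, where 12.1% did. It was 11, with 9 of the 16 kept, beside 19.7% of all probes, once the running median over neighbouring probe IDs was removed from each array. That local level lay between -0.52 and 0.25 at the called members. It was 0 when the Cy3 arrays were turned, a reading under which 1 of all probes passed.

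**Figure D1:**
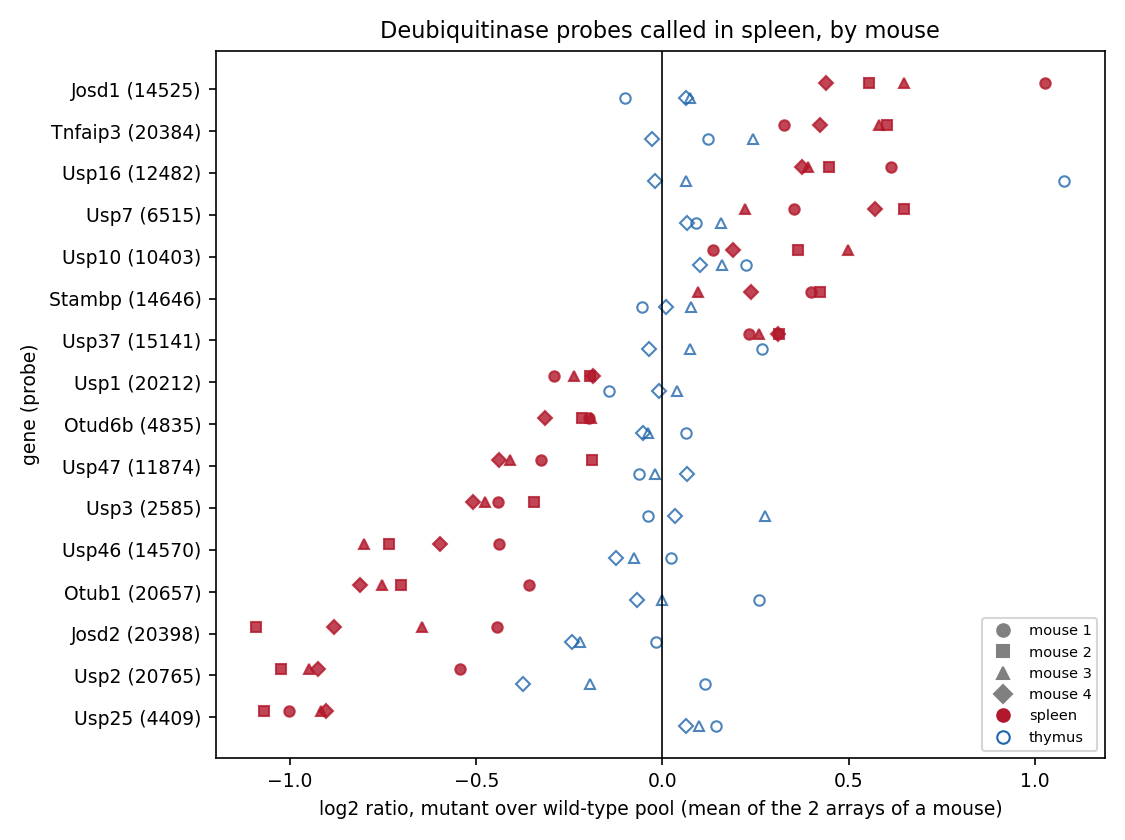
Log2 ratios (mutant over pool, horizontal axis) of the 16 member probes past the threshold in spleen, with 1 filled point per spleen mouse (4 mice) and 1 open point per thymus mouse (3 mice, Cy3 arrays as deposited), each the mean of 2 arrays. Usp25 has the lowest spleen mean, -0.97, with its 4 mice close together, and Josd1 the highest, 0.67, with mouse 1 above the other mice.

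Usp25, an enzyme known to regulate cytokine and innate immune signalling, had the lowest spleen ratio of the group. Its probe gave -1.002, -1.07, -0.92 and -0.90 in mice 1 to 4, a mean of -0.97 ± 0.08 (SD, n = 4), or 1.96-fold lower than the pool. All 8 spleen arrays were below 0, with a mean of -1.15 where the mutant RNA was in Cy5 and -0.80 where it was in Cy3. Of all tested probes in spleen, 0.447% had a lower or equal mean. The gene was chosen for its difference between tissues, so this rank is a description and not a test. With the Cy3 arrays turned, the mean was -0.17.

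Usp2, a clock-controlled enzyme that acts on Mdm2, had spleen log2 ratios of -0.54, -1.02, -0.95 and -0.93 in mice 1 to 4. Mouse 1 lay above the other mice, and all 4 lay below 0. The mean was -0.86 ± 0.22 (SD, n = 4; limma, adjusted p = 0.0041). Probes with neighbouring IDs were also low there: their running median around Usp2 lay at -0.48, and with that local level removed the Usp2 ratio was -0.38 (limma, adjusted p = 0.0224). Usp46, which works with the WD40 cofactor Wdr48 (Uaf1), gave -0.44, -0.73, -0.80 and -0.60 at its probe 14570. All 4 mice were low, with a mean of -0.64 ± 0.16 (SD, n = 4; limma, adjusted p = 0.00483).

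Among the enzymes with known roles on chromatin and in DNA repair, Usp3, a histone H2A deubiquitinase, gave spleen log2 ratios of -0.44, -0.34, -0.48 and -0.51. The mice lay close together, and the mean was -0.44 ± 0.07 (SD, n = 4; limma, adjusted p = 0.00628). Usp47, which stabilises DNA polymerase beta, averaged -0.34 ± 0.11 at probe 11874 (SD, n = 4; limma, adjusted p = 0.0183). Usp1, which acts on Fancd2 and Pcna, gave the least negative of the USP calls, at -0.29, -0.19, -0.24 and -0.19. Its mean was -0.23 ± 0.05 (SD, n = 4; limma, adjusted p = 0.0389), and the call was lost whichever mouse was left out.

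Usp16, another histone H2A deubiquitinase, went the other way from Usp3. Its probe 12482 gave 0.61, 0.45, 0.39 and 0.38 in mice 1 to 4, all above 0. The mean was 0.46 ± 0.11 (SD, n = 4; limma, adjusted p = 0.0074). Usp7, which acts on Mdm2 and p53, gave 0.35, 0.65, 0.22 and 0.57 at probe 6515, a mean of 0.45 ± 0.20 (SD, n = 4; limma, adjusted p = 0.0175). The mice spread widely but did not cross 0. With the level of neighbouring IDs removed, the Usp7 ratio was 0.20 (limma, adjusted p = 0.119), which ends its call. Usp10, which acts on p53 in the cytoplasm, averaged 0.30 ± 0.17 (SD, n = 4; limma, adjusted p = 0.0451), and Usp37, a cell cycle enzyme, 0.28 ± 0.04 at probe 15141 (SD, n = 4; limma, adjusted p = 0.0203). Neither passed with that local level removed (0.23 and 0.19). In all, 10 of 47 USP probes passed in spleen (21.3%, beside 25.3% of all probes), 4 higher and 6 lower, counting Usp25, which prompted the group. The other 37 lay between -0.54 and 0.46. Among those were single probes of Usp18, which removes the ubiquitin-like Isg15 (-0.18 ± 0.11), Usp22 of the SAGA coactivator (0.18 ± 0.07), Usp4 (-0.25 ± 0.15) and Usp9x (0.15 ± 0.25, SD, n = 4 each).

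In the OTU family, 3 of 14 tested probes passed in spleen (21.4%, beside 25.3% of all probes), 1 higher and 2 lower. Tnfaip3, which edits ubiquitin chains to end NF-kB signals, was the higher one, at 0.33, 0.60, 0.58 and 0.42. All 4 mice lay above 0, with a mean of 0.48 ± 0.13 (SD, n = 4; limma, adjusted p = 0.00766), or 1.40-fold. Its neighbouring IDs lay at -0.28, and with that level removed its ratio was 0.76. Otub1, which blocks E2 enzymes as well as cleaving ubiquitin chains, gave -0.36, -0.70, -0.75 and -0.81 at probe 20657. Mouse 1 lay above the other mice, and the mean was -0.66 ± 0.20 (SD, n = 4). Otub1 prompted the group, so these values are a description, although the probe is among the 3 counted above. The neighbouring IDs of that probe lay at -0.52, and with their level removed the ratio was -0.13 (limma, adjusted p = 0.27), which ends its call. Otud6b averaged -0.23 ± 0.06 at probe 4835 (SD, n = 4; limma, adjusted p = 0.0398), a call lost whichever mouse was left out. The 4 Otub2 probes, and those of Otud5 and Otud7a, did not pass.

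The Josephin family, small enzymes named after the domain of ataxin-3, had 2 of 6 probes past the threshold, in opposite directions (33.3%, beside 25.3% of all probes). Josd1 gave spleen log2 ratios of 1.03, 0.56, 0.65 and 0.44. Mouse 1 was the highest, and the mean of 0.67 ± 0.26 (SD, n = 4; limma, adjusted p = 0.00874) was the highest of all members, or 1.59-fold. Josd2 probe 20398 gave -0.44, -1.09, -0.65 and -0.88, a mean of -0.77 ± 0.28 (SD, n = 4; limma, adjusted p = 0.00727). The 4 mice of Josd1 and the 4 of Josd2 probe 20398 lay on opposite sides of 0. The other Josd2 probe, 11589, gave 0.31, 0.09, -0.15 and 0.19 and did not pass. The 3 Atxn3 probes lay between -0.05 and 0.02, and none passed.

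The JAMM enzyme Stambp (AMSH), which trims ubiquitin chains at endosomes, was represented by 1 probe. It gave 0.40, 0.42, 0.10 and 0.24, a mean of 0.29 ± 0.15 (SD, n = 4; limma, adjusted p = 0.0433). The call was lost without mouse 1, 2 or 4, and with the level of neighbouring IDs removed (0.11). None of the 3 UCH probes passed. Uchl3 had the widest spread of that family, with 0.30 in mouse 1 and -0.79, -0.67 and -0.73 in mice 2 to 4. The 2 arrays of mouse 1 disagreed there, at -0.399 (mutant in Cy5) and 0.996 (mutant in Cy3). Bap1, a nuclear tumour suppressor of the UCH family, averaged 0.01 ± 0.12, and Uchl1, an abundant neuronal enzyme, -0.03 ± 0.15 (SD, n = 4 each). Cyld, the other NF-kB brake, averaged 0.14 ± 0.12 (SD, n = 4) and did not pass either.

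Several spleen calls were less firm, and these were not the smaller ratios alone. Usp7 and Usp37 did not pass without mouse 2 or mouse 4, Usp47 without mouse 3 or mouse 4, and Usp10 without mouse 2, 3 or 4. These 4 probes, Stambp, Usp1, Otud6b and Josd1 (limma, adjusted p = 0.0507) also did not pass when the pool was given the variance of 4 mice, assumed to vary like the mutants; 8.39% of all probes then passed. Usp2, Josd2, Usp46, Usp3, Usp16 and Tnfaip3 passed with each mouse left out in turn and with that variance added. Of these, Usp3 (-0.27, limma, adjusted p = 0.123) and Usp16 (0.29, limma, adjusted p = 0.246) did not pass with mutant in Cy3 alone. Josd2, Usp3, Usp16 and Tnfaip3 did not pass against a 1.2-fold change. Among the less firm calls, Usp10 averaged 0.06 with mutant in Cy5 and 0.53 in Cy3, and Usp47 -0.55 and -0.13. Usp16 did not pass when both tissues were fitted together (limma, adjusted p = 0.055).

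The promoters of the 2 lower and 2 higher called members with the largest spleen ratios are shown side by side. Their part in the spleen ratios was not tested. They were taken from RefSeq (GRCm38.p6), from 250 bases before to 50 bases after the start, on the strand of the gene and 5′ to 3′. Capitals mark matches on either strand to CACGTG (an E-box), GGAATTTCC (a kappaB site), GGGCGG (a GC box) or CCGGAA (an ETS core), motifs that were chosen after the sequences had been seen. Matches of different motifs can overlap. The Usp25 promoter lies at chr16:77013819-77014118 on the + strand and the Usp2 promoter at chr9:44084670-44084969 on the + strand. The Josd1 promoter lies at chr15:79687823-79688122 on the - strand and the Tnfaip3 promoter at chr10:19015361-19015660 on the - strand.
Usp25: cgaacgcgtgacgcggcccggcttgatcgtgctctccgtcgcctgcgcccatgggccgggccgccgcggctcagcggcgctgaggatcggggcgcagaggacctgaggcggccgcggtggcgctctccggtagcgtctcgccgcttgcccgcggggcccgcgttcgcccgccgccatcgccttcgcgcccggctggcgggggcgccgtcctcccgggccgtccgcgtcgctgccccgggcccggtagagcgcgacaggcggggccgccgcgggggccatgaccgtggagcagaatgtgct
Usp2: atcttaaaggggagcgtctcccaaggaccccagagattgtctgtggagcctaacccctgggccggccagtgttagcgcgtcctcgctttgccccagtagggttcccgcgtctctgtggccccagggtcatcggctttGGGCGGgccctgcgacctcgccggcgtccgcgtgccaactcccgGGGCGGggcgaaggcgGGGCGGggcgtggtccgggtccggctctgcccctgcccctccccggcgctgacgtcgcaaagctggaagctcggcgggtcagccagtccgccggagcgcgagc
Josd1: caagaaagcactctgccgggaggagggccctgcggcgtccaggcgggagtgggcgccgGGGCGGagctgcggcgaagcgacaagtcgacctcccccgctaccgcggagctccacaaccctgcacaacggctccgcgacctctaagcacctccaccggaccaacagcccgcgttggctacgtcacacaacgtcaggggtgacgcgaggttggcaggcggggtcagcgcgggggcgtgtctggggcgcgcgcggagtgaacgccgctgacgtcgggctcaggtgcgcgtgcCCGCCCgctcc
Tnfaip3: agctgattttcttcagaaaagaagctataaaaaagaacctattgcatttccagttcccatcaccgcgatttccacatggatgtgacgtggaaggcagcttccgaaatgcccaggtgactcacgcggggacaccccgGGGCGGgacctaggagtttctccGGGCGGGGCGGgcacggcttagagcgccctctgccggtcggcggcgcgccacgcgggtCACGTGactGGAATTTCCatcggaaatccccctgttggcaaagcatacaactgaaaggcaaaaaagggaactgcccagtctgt

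The Usp25 window holds none of the 4 motifs, although it has the highest G+C content of the 4 promoters, at 79.0% with 54 CpG. The Usp2 window holds 3 GC boxes and the Josd1 window 2, with G+C contents of 71.7% and 72.3%. The Tnfaip3 window is the poorest in G+C, at 56.7%, and holds 1 E-box, 1 kappaB match and 3 GC boxes. Over the 38 promoters listed for 34 of the 42 genes, 5 hold an E-box (13.2%, beside 7.15% of all 32851 promoters), 1 a kappaB match (2.63% beside 0.317%), 23 a GC box (60.5% beside 35.7%) and 10 an ETS core (26.3% beside 14.9%). The member promoters are also richer in G+C, with a median of 62.2% beside 52.7%. These matches describe letters in the windows, and binding was not measured.

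Of the 42 genes, 18 had more than 1 probe, and those 18 accounted for 48 of the 72 probes. At 6 of the 18 all tested spleen probes had the same sign, and of the 8 with any called probe none had all of them called. The median range between the probes of a gene was 0.37 on the log2 scale. Usp46 showed the widest range: probe 14570 averaged -0.64, probe 17836 -0.11 and probe 10671 0.46 ± 0.65 (SD, n = 4), the last with 1.43 in mouse 3. That mouse's 2 arrays disagreed at probe 10671, with 3.21 (mutant in Cy5) and -0.345 (mutant in Cy3). Josd2 gave -0.77 at 1 probe and 0.11 at the other. Usp37 gave 0.28 at its called probe and -0.13 and -0.54 at the others, and Usp7 gave 0.45 beside -0.16, -0.07 and -0.01. The same disagreement in sign was seen at Otud6b (-0.23 and 0.14), Otud5, Usp8, Usp15, Usp20, Usp53, Otud7a and Atxn3.

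Closer agreement was found at Usp16, with 0.46 and 0.32, and at Usp47, with -0.34 and -0.19, although only 1 probe of each passed. Usp12, a partner of Wdr48 like Usp46, had 3 probes between 0.09 and 0.14. Usp39, a splicing factor of the USP fold, had 0.18 and 0.02. A call at 1 probe is therefore a statement about that probe, and probes that share a gene are not independent. When the probes of each gene were averaged first, 12 of the 42 genes passed in spleen, beside 25.3% of all 8836 genes tested that way.

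**Figure D2:**
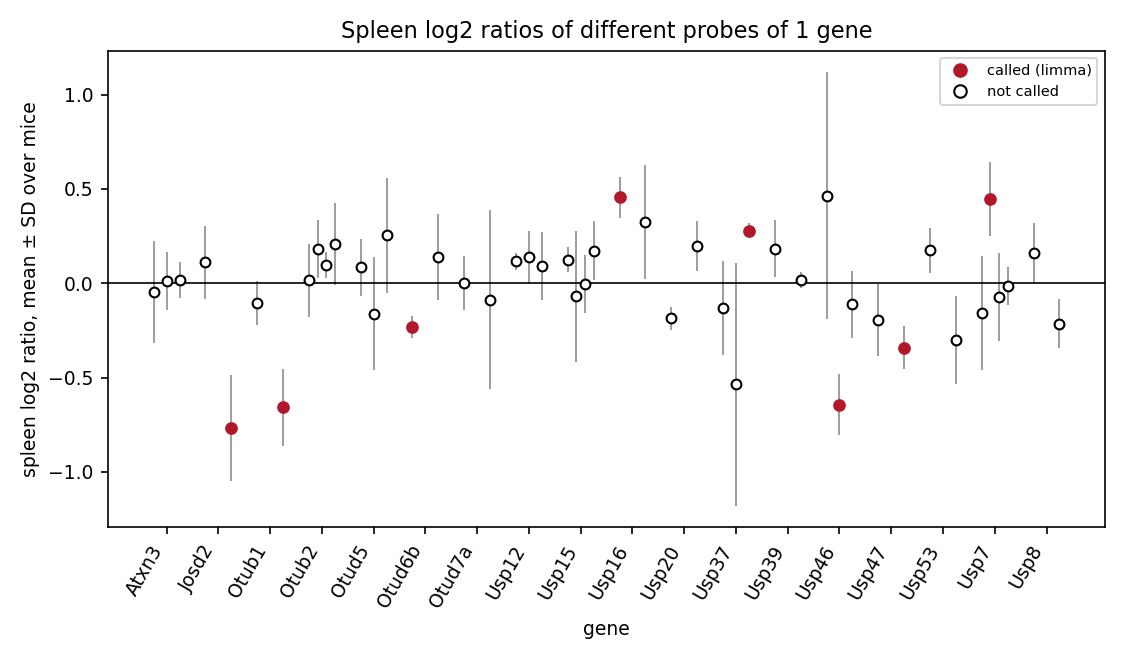
Spleen log2 ratios (mutant over pool, mean of the mice with SD) of every probe of the member genes that have more than 1 probe. Probes of Usp46, Josd2, Usp37 and Usp7 lie on both sides of 0, while the 3 Usp12 probes lie together between 0.09 and 0.14.

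In thymus, 0 of 72 member probes passed the threshold in limma, beside 0% of all 20130 tested probes. An unadjusted p under 0.05 was found at 6 of 72 members, and at 725 of all probes (3.6%). The count was 5 of 68 with the probes of Usp25 and Otub1, which prompted the group, left out. The ratios were small: the median size was 0.05 for members and for all probes, and the median SD between mice was 0.08 for members, beside 0.15 in spleen. A common sign in all 3 mice was found at 26 of 72 members and at 27.6% of all probes. The test against 0 also passed at no member with the Cy3 arrays turned, where 11 members and 10.8% of all probes had an unadjusted p under 0.05.

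Otub1, whose thymus value prompted the group, had 3 probes. Probe 7938 gave 0.42, 0.90 and 0.26 in mice 1, 3 and 4, a mean of 0.53 ± 0.34 (SD, n = 3), the highest thymus ratio of all members. Its Cy3 array of mouse 1 gave 0.15, a value repeated exactly at other members on that array. All 3 mice lay above 0, but the other Otub1 probes averaged 0.06 ± 0.17 and 0.00 ± 0.08 (SD, n = 3 each), or -0.09 and -0.04 with the Cy3 arrays turned. Turned likewise, the 3 mice of probe 7938 gave 0.27, -0.36 and 0.02, a mean of -0.03. In spleen that probe was measured in 2 mice, at 0.29 in mouse 1 and -0.37 in mouse 4, and was not tested. Usp25 gave 0.14, 0.10 and 0.06 in thymus, a mean of 0.10 ± 0.04 (SD, n = 3), or 0.03 with the Cy3 arrays turned.

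The lowest thymus p-values among the other members came from Usp26, Usp10 and Usp53, and in limma the adjusted p was 0.866 for each. Usp26, an X-linked gene known from testis, gave 0.37, 0.19 and 0.11, a mean of 0.22 ± 0.14 (SD, n = 3), which became 0.57 with the Cy3 arrays turned. Usp10 gave 0.22, 0.16 and 0.10, and its mean of 0.16 ± 0.06 (SD, n = 3) became -0.11. The 2 Usp53 probes disagreed, with 0.16 ± 0.08 at probe 1782 and -0.29 ± 0.26 at probe 8954 (SD, n = 3 each), and became 0.03 and -0.09. Josd2 probe 20398 gave -0.02, -0.22 and -0.24, a mean of -0.16 ± 0.12 (SD, n = 3), which became 0.23. Otud6b probe 11038, at -0.09 ± 0.07, and Otud5 probe 4915, at -0.07 ± 0.03 (SD, n = 3 each), became 0.20 and 0.22. The sign of 4 of these 7 probes thus depended on the reading of the Cy3 arrays. Usp16 probe 12482 was high in mouse 1 alone, with 1.08 beside 0.06 and -0.02, a mean of 0.37 under both readings. The 2 arrays of mouse 1 gave 2.01 (mutant in Cy5) and the same repeated 0.15 (mutant in Cy3).

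**Figure D3:**
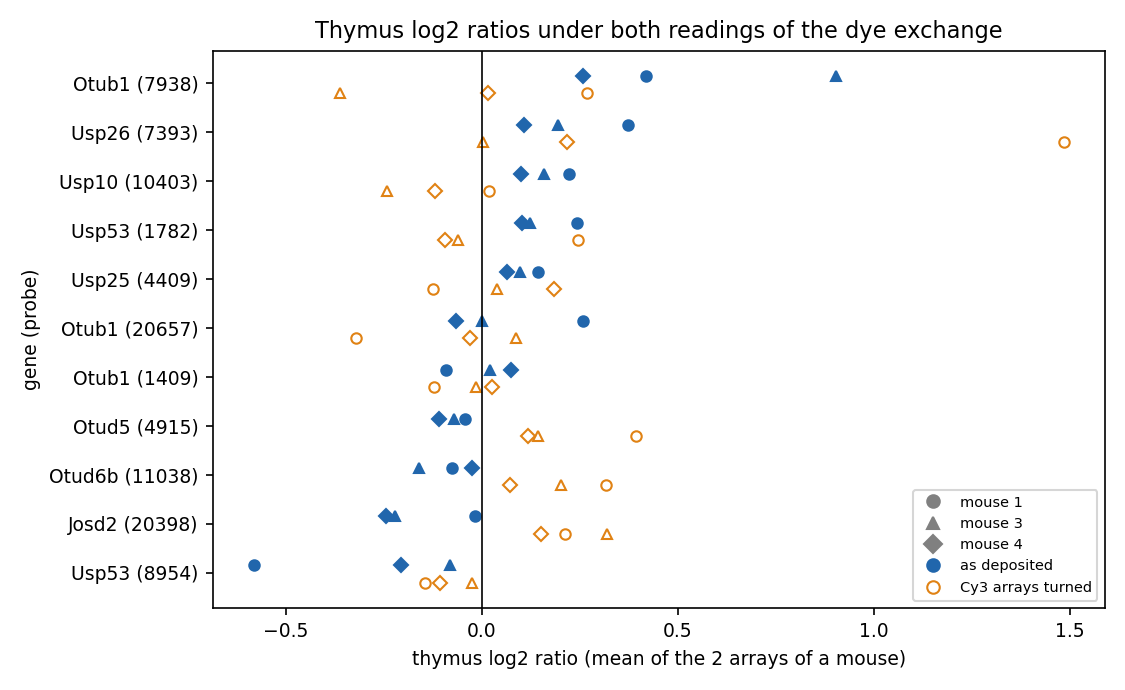
Thymus log2 ratios (horizontal axis) of the named member probes in mice 1, 3 and 4, as deposited (filled) and with the Cy3 arrays turned (open), each point the mean of a mouse's 2 arrays. The mice of Otub1 probe 7938 lie between 0.26 and 0.90 as deposited and between -0.36 and 0.27 with the Cy3 arrays turned.

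The ratios of the tissues were compared in a joint limma fit of spleen minus thymus. Of 71 tested members 9 passed (12.7%), beside 13.9% of all 19948 tested probes, with 2 higher in spleen (5.91% of all probes) and 7 lower (8.04%). Without Usp25 and Otub1 it was 7 of 68 (10.3%). The mice of the tissues did not overlap at 20 of 71 members, among them all 9 that passed, and at 31.1% of all probes. The Usp25 ratio was lower in spleen than in thymus, at -1.07 ± 0.08 (SE; -1.005 with the thymus Cy3 arrays turned), and the mice did not overlap, with -0.90 the highest in spleen and 0.06 the lowest in thymus. Otub1 probe 20657 differed by -0.72 ± 0.13 (SE; -0.57 with those arrays turned), with thymus mice at 0.26, 0.00 and -0.07. Both are given as a description.

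Of the members that did not prompt the group, Usp2 differed by -0.71 ± 0.15 (SE; limma, adjusted p = 0.0189), with thymus ratios of 0.11, -0.20 and -0.37. Usp46 probe 14570 differed by -0.58 ± 0.10 (SE; limma, adjusted p = 0.0109), Josd2 probe 20398 by -0.60 ± 0.15 (SE; limma, adjusted p = 0.0349) and Usp47 probe 11874 by -0.33 ± 0.09 (SE; limma, adjusted p = 0.04). Usp3 gave thymus ratios of -0.04, 0.27 and 0.04, a difference of -0.53 ± 0.10 (SE; limma, adjusted p = 0.0117). Josd1 gave -0.10, 0.07 and 0.06 in thymus, far from its spleen ratios, and differed by 0.66 ± 0.14 (SE; limma, adjusted p = 0.019). Tnfaip3 gave 0.12, 0.24 and -0.03, and differed by 0.37 ± 0.10 (SE; limma, adjusted p = 0.0488). With the thymus Cy3 arrays turned, the thymus means became 0.11 for Usp2, 0.23 for Josd2, -0.19 for Usp46, -0.03 for Usp47, -0.06 for Usp3, -0.17 for Josd1 and -0.03 for Tnfaip3. The differences then were -0.97 for Usp2, -0.99 for Josd2, -0.39 for Usp3, 0.84 for Josd1 and 0.51 for Tnfaip3, all with the sign given above and all past the threshold. Usp16 was called in spleen but not for the difference, at 0.08 ± 0.24 (SE; limma, adjusted p = 0.855).

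The number of calls moved with the mice used. No member passed without mouse 3 or without mouse 4, or with the Cy3 arrays of both tissues turned, and 0% to 0.015% of all probes did. With those of thymus alone turned 10 members passed, beside 17.1% of all probes. The Usp46 difference (-0.45; limma, adjusted p = 0.0911) and the Usp47 difference (-0.31; limma, adjusted p = 0.0531) then lost their calls. Tnfaip3 was also not called without mouse 1 or 2, Usp47 without mouse 1 and Josd2 without mouse 2. With the mouse as a block over mice 1, 3 and 4, Usp2 alone passed of the 62 tested members other than Usp25 and Otub1 (limma, adjusted p = 0.0449), beside 3.1% of all probes.

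**Figure D4:**
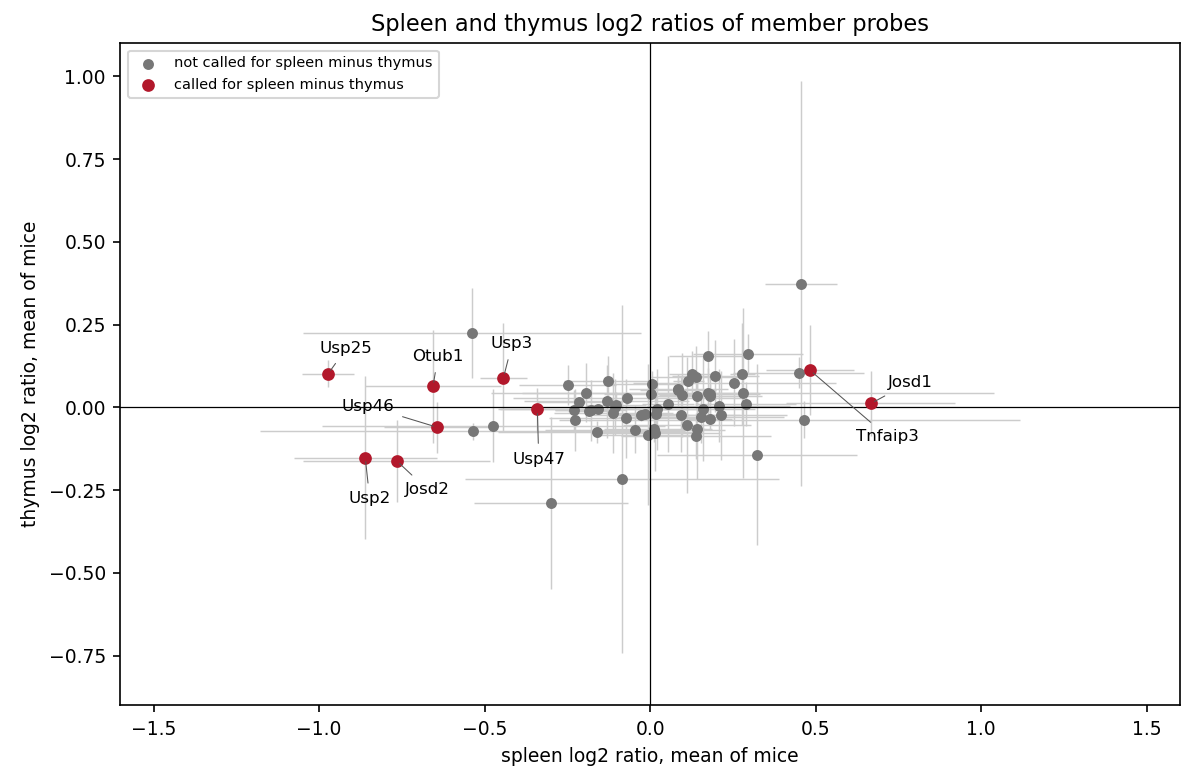
Spleen (horizontal axis) against thymus (vertical axis) log2 ratios of the member probes, as means of 4 and 3 mice with SD, with the Cy3 arrays as deposited. The 9 probes called for spleen minus thymus are named; they spread from -0.97 to 0.67 in spleen and stay between -0.16 and 0.11 in thymus.

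The wider ubiquitin pathway was described from gene lists in spleen, naming the genes with the smallest p-values, and no probe of any list passed in thymus. Of the ubiquitin and ubiquitin-like precursors 2 of 6 tested probes passed, with Sumo3 higher at 0.27 ± 0.05 (SD, n = 4; limma, adjusted p = 0.0255) and Ufm1 lower at -0.34 ± 0.19 (SD, n = 4; limma, adjusted p = 0.0365). Of the E1 and E2 enzymes that load ubiquitin 8 of 37 passed, 3 higher and 5 lower. The E2 enzymes Ube2d3, at -0.87 ± 0.17, and Ube2e2, at -0.62 ± 0.20, had the smallest p-values (SD, n = 4 each; limma, adjusted p = 0.00401 and 0.00665). Of the HECT and RBR ligases 7 of 29 passed, 2 higher and 5 lower. Rnf31 (HOIP), which builds linear ubiquitin chains, gave -0.87 ± 0.09 (SD, n = 4; limma, adjusted p = 0.00401), and the HECT ligase Wwp2 -0.51 ± 0.09 (SD, n = 4; limma, adjusted p = 0.00511).

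Of the deubiquitinases outside the symbol rule 4 of 17 passed, 2 in each direction. Mindy1, which cleaves long ubiquitin chains, was higher at 0.63 ± 0.11 (SD, n = 4; limma, adjusted p = 0.00407), and Prpf8, a splicing factor with an inactive JAMM domain, lower at -0.59 ± 0.02 (SD, n = 4; limma, adjusted p = 0.00401). Of the SUMO and NEDD8 proteases 5 of 13 passed, 2 higher and 3 lower, with Desi1 and Senp6 both at -0.48 ± 0.08 and ± 0.14 (SD, n = 4; limma, adjusted p = 0.00562 and 0.008). Of a list of the proteasome's regulatory particle, its shuttles and Vcp (p97) with its cofactors, 8 of 32 passed, 3 higher and 5 lower. The Vcp cofactor Faf2 lay at 1.15 ± 0.19 and the regulatory particle subunit Psmd12 at -0.78 ± 0.13 (SD, n = 4; limma, adjusted p = 0.00401 each).

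Around Tnfaip3 and Cyld, 7 of 27 probes of NF-kB signalling passed, 5 higher and 2 lower. The kinase Ikbkb was higher at 0.50 ± 0.07 (SD, n = 4; limma, adjusted p = 0.00472) and the NF-kB subunit Relb lower at -0.48 ± 0.12 (SD, n = 4; limma, adjusted p = 0.00754). Around Stambp and Usp8, 11 of 31 probes of the ESCRT machinery and endosomal ubiquitin passed, 5 higher and 6 lower. The ESCRT-I subunit Vps37c, at -0.59 ± 0.09, and the ligase Rnf128, at -0.73 ± 0.16, had the smallest p-values (SD, n = 4; limma, adjusted p = 0.00411 and 0.00406). The ESCRT-II subunits Vps36 and Snf8 lay at 0.74 ± 0.18 and -0.82 ± 0.22 (SD, n = 4; limma, adjusted p = 0.0042 and 0.00427). Of the nuclear partners of Usp7, Usp22, Usp1 and Bap1 5 of 19 passed, 4 higher and 1 lower. Atxn7l1 gave 0.42 ± 0.06 and Brca1, the repair ligase, -0.44 ± 0.14 (SD, n = 4; limma, adjusted p = 0.00662 and 0.0112). At several of these genes other probes did not pass: Ufm1 had 0.22, the opposite sign, Faf2 had -0.19 and 0.06, and Mindy1 0.09 and 0.04. Vps36 had 0.18 and 0.14, and the 3 further Senp6 probes lay between -0.47 and 0.29. With the level of neighbouring IDs removed, 13 of the 18 list genes named for their smallest p-values kept their calls. Vps36 and Snf8 were not part of that check. Ube2e2 (-0.15), Rnf128 (-0.29), Senp6 (-0.02), Atxn7l1 (0.15) and Brca1 (0.11) lost theirs. The share called ran from 21.6% to 38.5% over the 9 lists, beside 25.3% of all probes.

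Markers of cell types moved with the spleen ratios in both directions, and their part in the results above was not tested. In spleen both tested NK cell probes were higher (Nkg7 0.77 and Gzma 0.45), beside 13.4% of all probes. Lower calls were found at 3 of 12 neutrophil probes (1 of 3 Mpo probes, Elane and Ngp). They were also found at 2 of 8 erythroid and 2 of 10 stromal probes, beside 11.9% of all probes. Ratios above 0 were seen at 6 of the 12 neutrophil, 3 of the 8 erythroid and 2 of the 10 stromal probes. The erythroid calls were Klf1 and 1 Hba-a1 probe. Both stromal calls were probes of Col1a2, whose other probes lay at 0.03 and 0.02. The calls were mixed for 3 of 5 macrophage, 3 of 8 T cell and 2 of 8 thymic epithelium probes. Of B cell and cortical thymocyte probes 0 of 3 each passed, beside 25.3% of all probes in either direction. In thymus, 0 probes of any marker list passed in limma.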

How the data were processed

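RNA of 4 mutant mice per tissue was hybridised against a wild-type pool on 16 two-colour arrays, 2 per mouse with the dyes exchanged. The deposited values are log ratios, read here as log2. The sources used here do not give the scanner, the normalization or any background correction. Among values above 10 in size, each array held 1 constant, 15.085 to 16.925 in size, at 25 to 137 probes, which was read as a placeholder and set to missing. The constant was positive with mutant RNA in Cy5 and negative in Cy3 on 16 of 16 arrays, and the ratios were therefore taken as already turned. That left 20046 to 20639 measured probes per array. Smaller repeated values were not searched for and were kept as measured. On the thymus array of mouse 1 with mutant RNA in Cy3, exactly 0.15 stood at Otub1 probe 7938, Usp16 probe 12482, Cyld and other members. On that array -0.435 also stood at Otud5 probe 4915, Otud7a probe 16827 and Usp53 probe 8954. With mutant RNA in Cy5, -0.313 stood at Josd2 probe 11589, Usp15 probe 10912 and Usp3. Such values enter the thymus means given above. The arrays carry no counts, and the number of mice limits the precision.

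A mouse was the replicate, as the mean of its 2 arrays. A probe needed values in at least 3 mice. Each tissue was fitted alone with lmFit and eBayes of limma 3.58.1 in R 4.3.3, ratio against 0, with Benjamini-Hochberg adjustment over all probes at 0.05. The pool is the 1 control sample, so its own spread is left out. Spleen minus thymus came from a joint fit. The mice are separate animals, and a mouse gave both tissues, so mouse numbers pair the samples. Over all probes, the deviations of a mouse's spleen and thymus from their tissue means correlated at -0.0519, -0.0115 and -0.07 (mice 1, 3 and 4). The fits were tested on simulated data.

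Gene symbols came from the platform annotation. All 72 member probes were found by gene ID in RefSeq's table, with 0 symbols changed. Usp25 and Otub1 were named because they prompted the group. In spleen the 8 called probes with the smallest p in each direction were named, in thymus the 4 in each direction whether called or not, and for the difference the 8 with the smallest p besides Usp25. Genes whose probes disagree and at most 2 genes per pathway list completed the rule. Uchl3, Usp18, Usp22, Usp4, Usp9x, Usp12, Usp39, Bap1, Uchl1, Cyld, Atxn3, Vps36 and Snf8 were added after their values were seen. The members and lists were chosen with earlier results of these data known. Alternatives changed the orientation of the Cy3 arrays, centring, the level of neighbouring IDs, the placeholder, the pool's variance, the fold tested, the unit, the dye used and the mice.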

Additional observations from a re-analysis of the deposited data

Results flagged for a closer look

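Spleen and thymus ratios differed in the joint limma fit at 7 of 68 tested member probes other than those of Usp25 and Otub1 (10.3%, beside 13.9% of all probes). The values of those 2 genes prompted the group and are added as a description. The differences, spleen minus thymus on the log2 scale, were -1.07 for Usp25, -0.72 for Otub1 probe 20657, -0.71 for Usp2, -0.60 for Josd2 probe 20398, -0.58 for Usp46 probe 14570, -0.53 for Usp3, -0.33 for Usp47 probe 11874, 0.66 for Josd1 and 0.37 for Tnfaip3.

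Uchl3, which processes ubiquitin precursors, stood at 0.30 in spleen mouse 1, while the other 3 mice lay between -0.79 and -0.67. The 2 arrays of mouse 1 disagreed, with -0.399 where the mutant RNA was in Cy5 and 0.996 where it was in Cy3. Uchl3 was the only member of the 65 measured in 4 spleen mice whose highest or lowest mouse lay farther from the others than Dixon's 95% limit, which chance alone exceeds in about 1 of 20 groups.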

How the results depend on the processing

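Fits with both tissues together (23), array medians set to 0 (15), the level of neighbouring IDs removed (11), placeholders kept (14), complete probes (16), Cy5 alone (13) or Cy3 alone (11) and gene means (12) kept the spleen count within 1.5 times of 16. It was 8 with the variance of the pool added (8.39% of all probes), 3 against a 1.2-fold change (4.41%), 0 with the Cy3 arrays of both tissues turned, and 9 to 15 with each mouse left out (12.1% to 24.8%). In thymus the limma count was 0 under all alternatives tried. For the difference (9 probes), the count was 0 with the Cy3 arrays of both tissues turned, 5 with the level of neighbouring IDs removed (10.4% of all probes), 15 with thymus mouse 2 kept (22.7%), 1 with the variance of the pool added (1.34%), 1 against a 1.2-fold change (0.0201%), 2 with Cy5 alone (4.1%), 0 with Cy3 alone (0.0939%), and 0 to 9 with each mouse left out (0% to 10.6%). The 1 probe left with the pool's variance added or against a 1.2-fold change was Usp25, whose difference prompted the group. All other called members lost their calls under those settings.

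With the mouse as a replicate block, which pairs the tissues of a mouse, 3.1% of all probes passed for the difference. Of the 62 tested members other than Usp25 and Otub1, which prompted the group, Usp2 alone was called. Usp46 (-0.55; limma, adjusted p = 0.0559), Usp3 (-0.57; 0.0574), Josd2 (-0.50; 0.0621), Josd1 (0.69; 0.078), Usp47 (-0.39; 0.0979) and Tnfaip3 (0.33; 0.132) lost their calls.

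With the Cy3 arrays of both tissues turned, spleen signs reversed at Tnfaip3 (-0.057), Usp7 (-0.002), Usp37 (-0.109), Usp10 (-0.232), Usp2 (0.004), Josd2 (0.158) and Otud6b (0.005), and the Tnfaip3 difference became -0.027. In thymus, turning the Cy3 arrays gave -0.115 for Usp10, 0.227 for Josd2, 0.197 for Otud6b and 0.218 for Otud5. Cy5 alone gave 0.066, 0.110 and 0.144 for the last 3, and Cy3 alone gave -0.344 for Usp26. The causes were not tested.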
